A study of Arabidopsis thaliana with 9 samples.

Results

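The 9 genes described here, WRKY30, WRKY38, WRKY41, WRKY46, WRKY53, WRKY54, WRKY55, WRKY62 and WRKY70, belong to group III of the WRKY transcription factors of Arabidopsis thaliana. They were taken by their gene identifiers from the 33323 genes of the deposited count table, whatever their level. Another 5 genes of the group, WRKY52, WRKY63, WRKY64, WRKY66 and WRKY67, are given only for comparison. RNA was sequenced from full leaves 12 to 14, harvested 49 days after sowing, of 3 genotypes with 3 libraries each. The genotypes were hac1-1 (T-DNA insertion line SALK_080380), hac1-2 (T-DNA insertion line SALK_136314) and the Columbia-0 wild type (WT), all grown under 20 h of light and 4 h of dark with a light intensity of 28 µmol m-2 s-1. Both insertions are in HAC1, the gene of a CBP-type histone acetyltransferase, and the comparison was made to look for genes that HAC1 acts on. Per the labels, both mutants had delayed senescence and their leaves were non-senescent, whereas WT leaves were senescent, so genotype and senescence state cannot be told apart. According to the design text the leaves came from 1 biological replicate, and the p-values therefore reflect the spread among these libraries alone, which may be technical.

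WRKY factors are plant transcription factors that bind the W box, a short DNA element with the core TTGAC, through a domain with a conserved heptapeptide and a zinc finger. Group III members carry a single WRKY domain whose zinc finger ends in cysteine in place of histidine. In leaves the group is known for salicylic acid defence and for senescence. WRKY53 promotes age-dependent senescence, and WRKY46 acts with WRKY53 and WRKY70 in basal resistance to Pseudomonas syringae. WRKY54 and WRKY70 are induced by salicylic acid and act redundantly as negative regulators of leaf senescence, and WRKY70 also represses part of the jasmonate response. WRKY38 and WRKY62 are repressors of basal defence that bind the histone deacetylase HDA19. WRKY55 has been described as a promoter of senescence and salicylic acid accumulation, and WRKY30 is a binding partner of WRKY53, WRKY54 and WRKY70.

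Library totals lay between 5750097 and 7329298 counts in hac1-1, between 7117392 and 9461600 in hac1-2 and between 5847562 and 8549215 in WT. At this depth 3 counts corresponded to 0.318 to 0.52 CPM, that is, counts scaled to a library total of 1e+06, for counting error only. HAC1 itself stood at 58.6, 72.7 and 64.1 CPM in hac1-1 and at 150.5, 132.6 and 121.8 CPM in hac1-2, against 152.8, 167.0 and 146.6 CPM in WT, so the counts check the hac1-1 label and leave the hac1-2 label unchecked, on which every direction given for hac1-2 rests. Summed CPM of 5 mesophyll markers ran from 9428 to 10300 in hac1-1, from 13220 to 14170 in hac1-2 and from 11020 to 12150 in WT. Summed CPM of 5 vascular markers ran from 90.5 to 99.2 in hac1-1, from 81.0 to 92.8 in hac1-2 and from 124.5 to 143.3 in WT, and that of 5 guard cell and trichome markers from 26.8 to 30.4, from 21.8 to 24.04 and from 30.2 to 40.4 in the same genotypes. Of 5 meristem and flower markers, STM, WUS, AP3 and AP1 had 0 counts in all libraries. The remaining marker, AG, had 0 counts in hac1-1, 5 in hac1-2 and 1 in WT. The root markers COBL9 and PLT1 also had 0 counts in all libraries, but other root markers were detected. SCR averaged 64.4 CPM in hac1-1, 62.6 CPM in hac1-2 and 59.6 CPM in WT, and SHR averaged 12.1, 13.4 and 11.0 CPM. The summed mesophyll level was lowest in hac1-1 and the summed vascular level highest in WT, but single markers did not all follow the sums. LHCB1.3 averaged 5600 CPM in hac1-1 and 7664 CPM in hac1-2, against 5362 CPM in WT, and IRX3 had 11 counts in hac1-1 and 30 in hac1-2, against 4 in WT. The part of such differences in the results below was not tested.

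The coding stretches of the heptapeptide for which the family is named show how alike the 9 genes are where their proteins touch DNA. All 9 encode the same 7 amino acids, and in all 9 the predicted zinc finger ended in cysteine. The stretches, read 5′ to 3′ on the coding strand of the TAIR10.1 reference, are given with capitals where a base differs from the most common base at that position among the 9 genes, with ties going to the base first in the alphabet.
WRKY46: tggagaaaatatggGcaaaaA
WRKY53: tggagaaaatatggTcaaaaA
WRKY41: tggagaaaatatggCcaGaaA
WRKY54: tggagGaaatatggacaaaag
WRKY70: tggagGaaatatggacaaaag
WRKY38: tggagGaaatatggTcaaaag
WRKY62: tggagGaaataCggacaaaag
WRKY55: tggCgTaaataCggTcaaaaA
WRKY30: tggagaaaGtaCggCcaGaag
WRKY54 and WRKY70 had the same 21 bases. Along the whole coding sequence WRKY54 and WRKY70 were 70.25% identical over 847 aligned bases, WRKY41 and WRKY53 75.7% over 875, and WRKY38 and WRKY62 61.7% over 772. The longest identical run in these pairs was 36 bases, between WRKY41 and WRKY53. Member transcripts were also searched against the longest annotated transcript of every other gene, for matches of at least 95% identity over at least 50 bases. Only WRKY41, with AT4G11080, and WRKY53, with AT4G23800, had such a match, each with a gene that overlaps it. Sequence outside annotated transcripts was not searched. How reads with several matches were counted is not stated in the sources used here.

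The proximal promoters of the 4 members with most counts are shown because these genes carry the differences described below. Each is the 250 bases before the annotated start in the TAIR10.1 reference, read towards the gene. All 4 genes lie on the minus strand, at chr2:19044956-19045205 for WRKY46, chr4:12393983-12394232 for WRKY53, chr2:17002529-17002778 for WRKY54 and chr3:20910624-20910873 for WRKY70. Capitals mark a W box, searched as TTGACC or TTGACT, or a TGA element, searched as TGACG, each on both strands.
WRKY46: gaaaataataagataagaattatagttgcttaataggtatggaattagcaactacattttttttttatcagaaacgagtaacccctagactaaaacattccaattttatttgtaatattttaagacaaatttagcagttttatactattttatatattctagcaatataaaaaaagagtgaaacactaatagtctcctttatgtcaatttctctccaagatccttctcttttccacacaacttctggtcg
WRKY53: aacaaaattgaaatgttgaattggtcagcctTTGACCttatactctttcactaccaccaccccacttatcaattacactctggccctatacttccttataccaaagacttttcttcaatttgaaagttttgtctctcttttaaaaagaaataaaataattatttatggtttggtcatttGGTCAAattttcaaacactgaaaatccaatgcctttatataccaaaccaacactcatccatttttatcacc
WRKY54: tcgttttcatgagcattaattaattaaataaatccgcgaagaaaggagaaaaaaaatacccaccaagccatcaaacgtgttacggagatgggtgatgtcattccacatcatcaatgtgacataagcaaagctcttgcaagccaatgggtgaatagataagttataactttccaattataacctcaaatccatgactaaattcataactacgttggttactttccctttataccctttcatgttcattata
WRKY70: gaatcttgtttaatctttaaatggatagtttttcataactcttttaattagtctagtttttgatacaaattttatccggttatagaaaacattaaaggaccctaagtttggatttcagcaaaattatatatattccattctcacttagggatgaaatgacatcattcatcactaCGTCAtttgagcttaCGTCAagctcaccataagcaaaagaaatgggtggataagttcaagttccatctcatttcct
WRKY53 held 2 W boxes, at 219 to 214 and at 71 to 66 bases before the start, in opposite orientations. WRKY41, its closest relative by coding sequence, held 2 at 194 to 189 and at 78 to 73 bases, also in opposite orientations. WRKY70 held no W box and 2 TGA elements, the motif bound by TGA factors, at 76 to 72 and at 61 to 57 bases. WRKY46 and WRKY54 held neither motif as searched in this window, and neither did WRKY38. The core TTGAC followed by A or G was not searched, and it occurs on the other strand in the windows of WRKY46, WRKY70 and WRKY38. A W box was present in 5 of 9 members (55.6%), in 19 of 58 other genes with a WRKY symbol (32.8%) and in 28.4% of 27443 promoters of the same length, and 6.18% of all promoters held at least 2. A TGA element was present in 18.6% of all promoters and at least 2 in 3.21%. A match describes letters in a window and shows no binding.

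**Figure D1:**
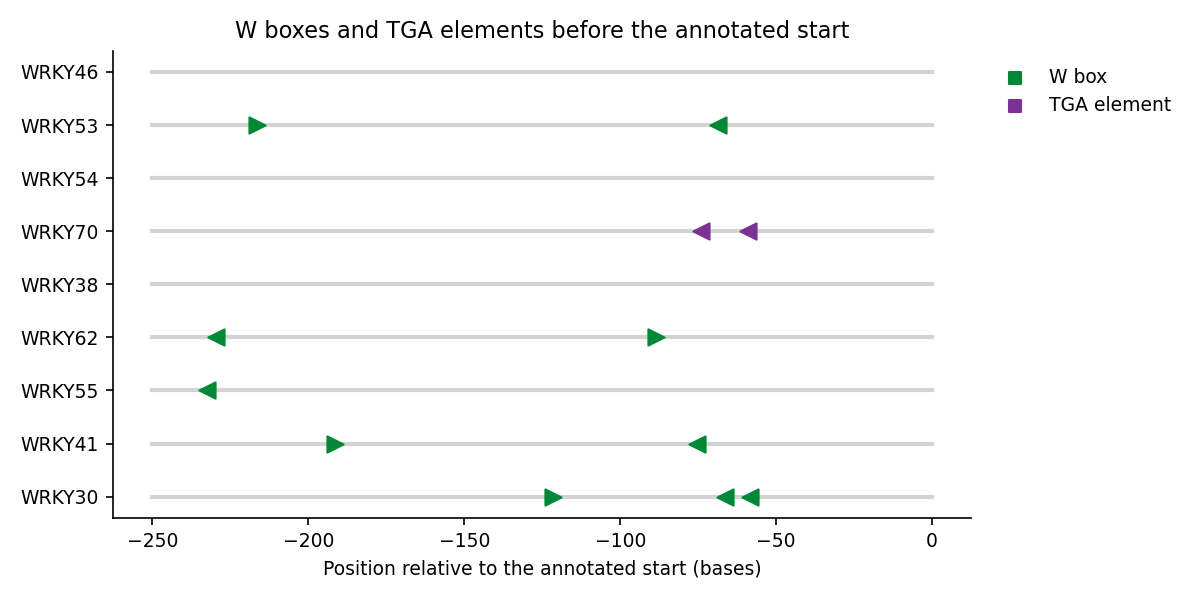
Positions of W boxes and TGA elements in the 250 bases before the start of each of the 9 genes, with bases before the start on the x axis and triangles pointing by strand. WRKY30 held 3 W boxes, WRKY41, WRKY53 and WRKY62 held 2 each and WRKY55 held 1, and WRKY70 alone among the 9 genes held TGA elements.

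Enough counts for a test were found for 5 members, WRKY38, WRKY46, WRKY53, WRKY54 and WRKY70, among 16560 tested genes. In hac1-1 against WT, 2 of these 5 were called lower and 2 higher with edgeR at an adjusted p under 0.05, where 9.12% of all tested genes were called lower and 3.51% higher. In hac1-2 against WT, 3 of 5 were called lower and 0 higher, with 7.44% of all tested genes lower and 2.85% higher. In hac1-2 against hac1-1, 3 of 5 were called lower and 1 higher, with 0.978% of all tested genes lower and 1.86% higher. The 3 comparisons had 2, 4 and 3 of the 5 lower in every library than in any library of the genotype set against it (15.7, 15.5 and 8.36% of all tested genes), and 2, 0 and 1 higher in every library (11.9, 12.5 and 9.85%). At an unadjusted p under 0.05 and with DESeq2, the count of higher members in hac1-2 against WT was also 0. The median log2 fold change of the 5 was 0.23, -0.75 and -0.999 in these comparisons, against 0.02, 0.02 and -0.01 over all tested genes. The comparisons share libraries, so their values are not independent of each other. The other 4 members, WRKY30, WRKY41, WRKY55 and WRKY62, had 0 to 12 counts per library and were not tested.

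**Figure D2:**
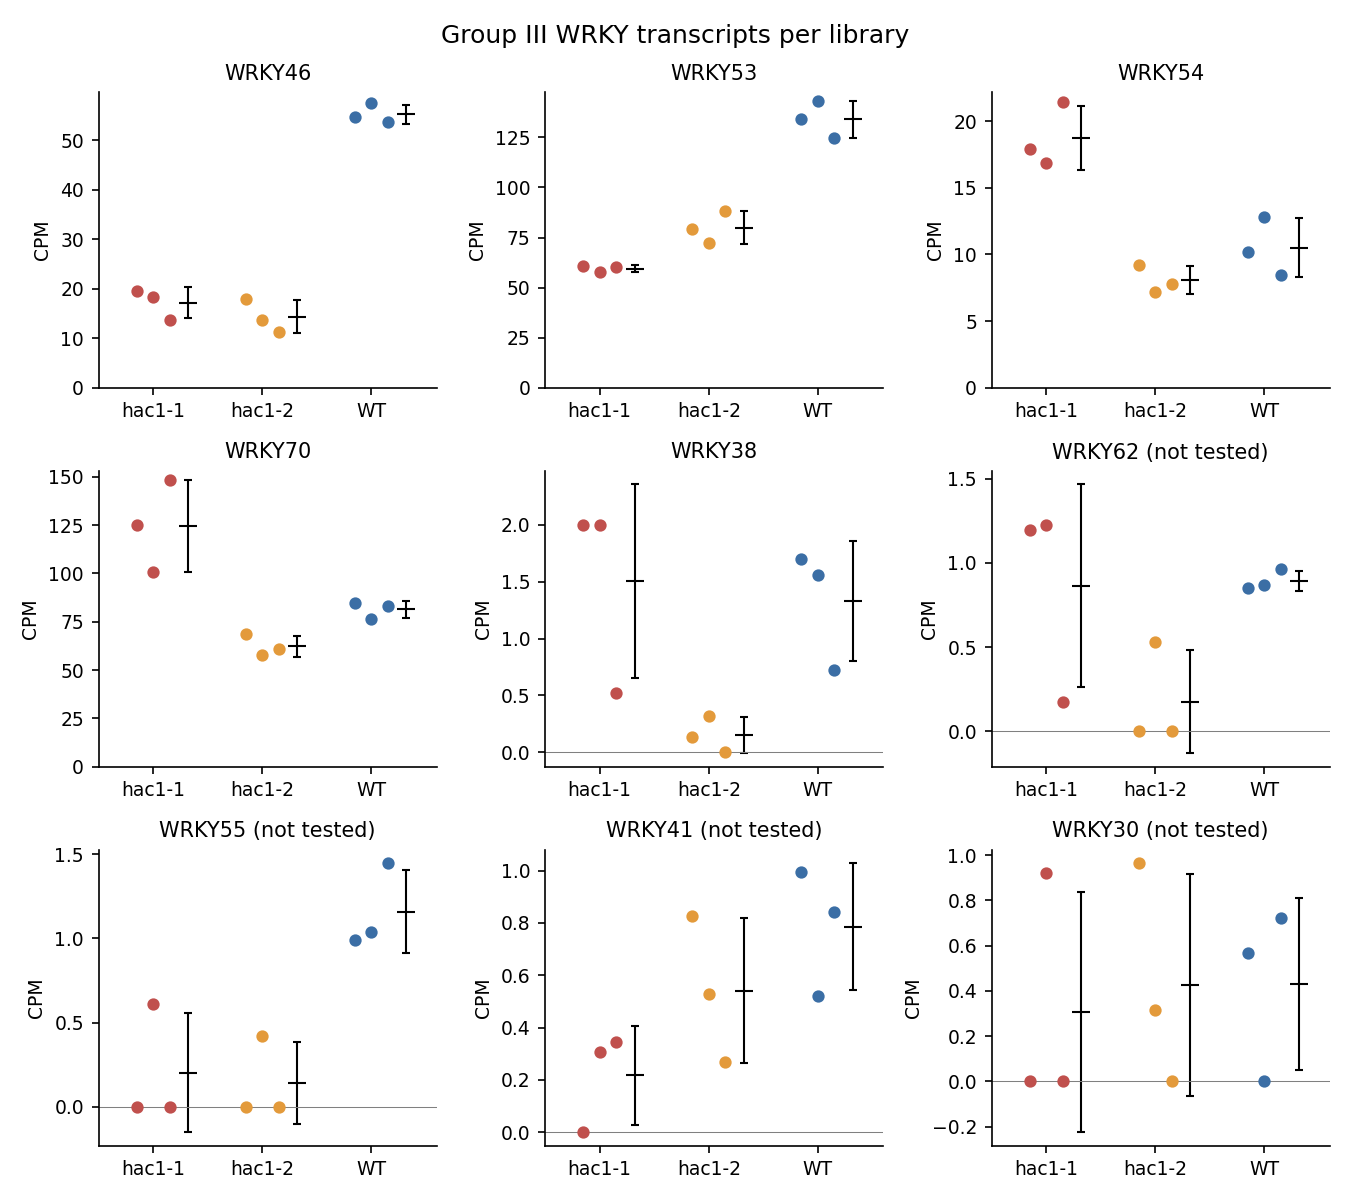
CPM in each library of hac1-1, hac1-2 and WT for the members, with black marks for the mean and SD of 3 libraries. WRKY46 and WRKY53 were lower in all 6 mutant libraries than in any WT library, and WRKY54 and WRKY70 were higher in all 3 hac1-1 libraries than in any other library.

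WRKY46 and WRKY53, which act in basal defence and, for WRKY53, in promoting senescence, fell in both mutants. WRKY46 (AT2G46400, chromosome 2 from 19043411 to 19044955, minus strand, 3 exons) had 19.5, 18.3 and 13.7 CPM in hac1-1 and 17.9, 13.8 and 11.3 CPM in hac1-2, against 54.6, 57.4 and 53.7 CPM in WT. The 6 mutant libraries all lay under the lowest WT library, and the mutants overlapped each other. In log2 units WRKY46 fell by 1.68 ± 0.17 in hac1-1 (± SE, edgeR adjusted p = 2.95e-08) and by 1.95 ± 0.17 in hac1-2 (edgeR adjusted p = 3.1e-09), to levels 3.20-fold and 3.86-fold lower than in WT. Between hac1-2 and hac1-1 the difference was -0.27 (95% confidence interval -0.63 to 0.09, edgeR adjusted p = 0.536). In bulk leaf RNA, fewer cells of a type and less RNA per cell cannot be told apart.

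WRKY53 (AT4G23810, chromosome 4 from 12392370 to 12393982, minus strand, 2 exons) had 60.7, 57.7 and 60.1 CPM in hac1-1 and 79.4, 72.2 and 88.3 CPM in hac1-2, against 134, 143 and 125 CPM in WT. None of the 3 genotypes overlapped, with hac1-1 lowest and WT highest. Its log2 level fell by 1.17 ± 0.11 in hac1-1 (± SE, edgeR adjusted p = 2.2e-08) and by 0.75 ± 0.11 in hac1-2 (edgeR adjusted p = 3.01e-05), to values 2.25-fold and 1.68-fold lower than in WT. In both mutants together, 879 of the tested genes (5.31%) were called lower in each, WRKY46 and WRKY53 among them.

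The level of WRKY53 was higher in hac1-2 than in hac1-1 by 0.43 ± 0.11 in log2 units (± SE, edgeR adjusted p = 0.0408). That call was lost without any 1 of 7 libraries, with edgeR adjusted p = 0.0733, 0.0850 and 0.115 without hac1-1 replicates 1 to 3, 0.0907 and 0.231 without hac1-2 replicates 1 and 3, and 0.0593 and 0.0508 without WT replicates 1 and 3. The last 341 bases of WRKY53 overlap 3xHMG-box2 (AT4G23800) on the opposite strand, and the sources used here do not give whether counting used strand. 3xHMG-box2, a gene of an HMG-box protein, had 4 to 22 counts per library, against 347 to 1037 for WRKY53.

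WRKY54 and WRKY70, negative regulators of senescence, were higher in hac1-1 than in WT, and the same genes did not pass the test in hac1-2 against WT. WRKY70 (AT3G56400, chromosome 3 from 20908711 to 20910623, minus strand, 3 exons) had 124.9, 100.6 and 148.2 CPM in hac1-1 and 68.4, 57.6 and 61.0 CPM in hac1-2, against 84.7, 76.5 and 83.1 CPM in WT. The genotypes did not overlap, and WT lay between the mutants. WRKY70 rose 1.53-fold in hac1-1 (log2 fold change 0.61, SE 0.13, edgeR adjusted p = 0.00114). In hac1-2 the log2 fold change was -0.39 (95% confidence interval -0.65 to -0.12, edgeR adjusted p = 0.0521), and over the alternatives its adjusted p ran from 0.0182 to 0.205.

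WRKY54 (AT2G40750, chromosome 2 from 17000419 to 17002528, minus strand, 3 exons) stood at 17.9, 16.9 and 21.5 CPM in hac1-1 and at 9.22, 7.20 and 7.81 CPM in hac1-2, against 10.2, 12.8 and 8.43 CPM in WT. Every hac1-1 library lay above every other library, while hac1-2 and WT overlapped. WRKY54 rose 1.80-fold in hac1-1 (log2 fold change 0.85, SE 0.21, edgeR adjusted p = 0.00601), a call lost without WT replicate 3 (edgeR adjusted p = 0.0558). In hac1-2 the log2 fold change was -0.37 (95% confidence interval -0.82 to 0.08, edgeR adjusted p = 0.346).

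The difference between the mutants was itself tested for this pair. WRKY54 was 2.32-fold lower in hac1-2 than in hac1-1 (log2 fold change -1.22, SE 0.21, edgeR adjusted p = 0.00108), and WRKY70 was 2.00-fold lower (log2 fold change -0.999, SE 0.13, edgeR adjusted p = 2.13e-05). Both differences passed the test under all 19 alternatives. To be called higher in hac1-1 than in WT and also lower in hac1-2 than in hac1-1 was uncommon, with 51 of 16560 genes (0.308%), WRKY54 and WRKY70 among them. This count was made after the values of the pair were seen.

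**Figure D3:**
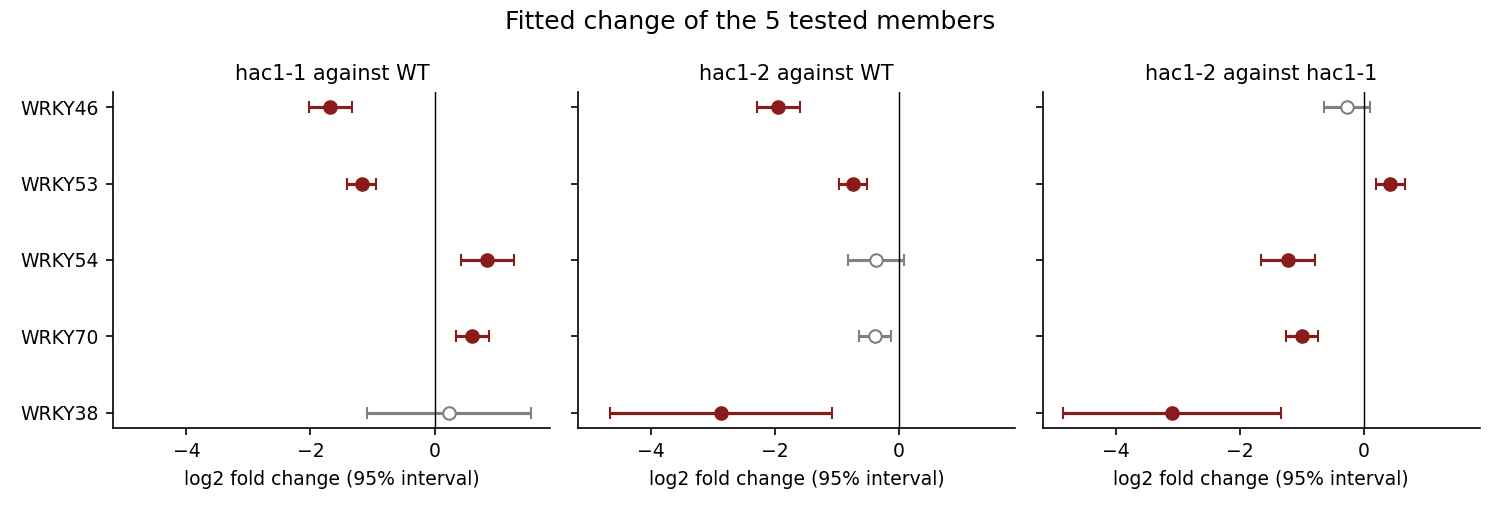
Log2 fold changes of the 5 tested members with 95% confidence intervals for hac1-1 against WT, hac1-2 against WT and hac1-2 against hac1-1, filled where edgeR called the gene. WRKY46 and WRKY53 lie left of 0 in both comparisons with WT, and WRKY54 and WRKY70 lie right of 0 in hac1-1 and left of 0 in hac1-2 against hac1-1.

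The repressors of basal defence WRKY38 and WRKY62 had few counts. WRKY38 (AT5G22570, chromosome 5 from 7495455 to 7496990, minus strand) had 15, 13 and 3 counts in hac1-1 and 1, 3 and 0 in hac1-2, against 12, 9 and 6 in WT. The hac1-2 libraries were at or under 3 counts, while hac1-1 and WT overlapped. In hac1-2 against WT the log2 fold change was -2.87 (95% confidence interval -4.66 to -1.08, edgeR adjusted p = 0.033), a call lost without WT replicate 1 or 2 (adjusted p = 0.135 and 0.10) and without hac1-2 replicate 1 or 3 (0.107 and 0.149). Against hac1-1 it was -3.10 (SE 0.86, edgeR adjusted p = 0.0459), and leaving out any library but hac1-1 replicate 3 ended this call (edgeR adjusted p of 0.0599 to 0.222). In hac1-1 against WT it was 0.23 (95% confidence interval -1.09 to 1.55, edgeR adjusted p = 0.881).

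WRKY62 (AT5G01900, chromosome 5 from 350925 to 352095, minus strand) had 9, 8 and 1 counts in hac1-1 and 0, 5 and 0 in hac1-2, against 6, 5 and 8 in WT. As for WRKY38, replicate 3 was the lowest of the hac1-1 libraries. Without the filter on low counts, the WRKY62 log2 fold change in hac1-2 against WT was -2.09 (edgeR adjusted p = 0.285).

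WRKY55, WRKY41 and WRKY30 were near the limit of detection. WRKY55 (AT2G40740, chromosome 2 from 16997078 to 16999499, plus strand) lies tail to tail with WRKY54, 919 bases away. It had 0, 4 and 0 counts in hac1-1 and 0, 4 and 0 in hac1-2, against 7, 6 and 12 in WT, so the 6 mutant libraries all lay under the lowest WT library. Fitted without the filter, WRKY55 gave a log2 fold change of -2.42 in hac1-1 (edgeR adjusted p = 0.246) and -2.76 in hac1-2 (edgeR adjusted p = 0.178), neither past the threshold. The neighbours WRKY54 and WRKY55 thus stood on opposite sides of WT in hac1-1, one called higher and the other with fewer counts and no call.

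WRKY41 (AT4G11070, chromosome 4 from 6759098 to 6760794, plus strand), a gene with roles in defence and seed dormancy, had 0, 2 and 2 counts in hac1-1 and 6, 5 and 2 in hac1-2, against 7, 3 and 7 in WT. Of its sequence, 517 bases overlap 3xHMG-box1 (AT4G11080), which had 10 to 43 counts per library, so reads of the 2 genes cannot be told apart there without strand. WRKY30 (AT5G24110, chromosome 5 from 8153115 to 8154710, minus strand) had 0, 6 and 0 counts in hac1-1 and 7, 3 and 0 in hac1-2, against 4, 0 and 6 in WT. No difference of WRKY30, WRKY41, WRKY55 or WRKY62 was detectable at this depth.

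Levels were compared between genes on the deposited FPKM scale, which divides by gene length. The sources used here do not give whether the libraries held whole transcripts or 3′ tags, and for 3′ tags a division by length would understate long genes. In hac1-1, WRKY70 averaged 112.7 ± 22.7 FPKM, WRKY53 39.5 ± 1.95, WRKY46 14.1 ± 2.63 and WRKY54 14.1 ± 1.90 (SD, n = 3). Mean FPKM in hac1-2 was 57.2 ± 5.48 for WRKY70, 53.97 ± 6.65 for WRKY53, 11.9 ± 2.70 for WRKY46 and 6.17 ± 0.83 for WRKY54. In WT, WRKY53 averaged 86.1 ± 6.73 FPKM, WRKY70 71.2 ± 2.89, WRKY46 43.96 ± 2.05 and WRKY54 7.64 ± 1.69. The order was WRKY70 before WRKY53 in every hac1-1 library and WRKY53 before WRKY70 in every WT library, while their FPKM values overlapped in hac1-2. WRKY46 and WRKY54 overlapped in hac1-1, and WRKY46 lay above WRKY54 in every hac1-2 and WT library. WRKY38, WRKY55 and WRKY62 averaged at most 1.48 FPKM in any genotype, and WRKY30 and WRKY41 were not in the FPKM table. Among 46 genes with a WRKY symbol in that table, WRKY70 ranked 4th by level in hac1-1, 7th in hac1-2 and 8th in WT, and WRKY46 ranked 18th, 19th and 10th.

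Ratios of 2 members within a library do not depend on how libraries are scaled. The log2 ratio of WRKY70 counts to WRKY53 counts was 1.04, 0.80 and 1.303 in hac1-1 and -0.22, -0.33 and -0.53 in hac1-2, against -0.66, -0.91 and -0.59 in WT. The ratio was thus above 0 in hac1-1 libraries and below 0 in hac1-2 and WT libraries, and no 2 genotypes overlapped. Its sign is that of raw counts, not divided by gene length (1111 bases for WRKY70 and 1514 for WRKY53 in the deposited FPKM). The log2 ratio of WRKY54 counts to WRKY46 counts was -0.12, -0.11 and 0.65 in hac1-1 and -0.96, -0.93 and -0.53 in hac1-2, against -2.42, -2.16 and -2.67 in WT, again with no overlap. The log2 ratio of WRKY70 counts to WRKY54 counts was 2.80, 2.58 and 2.79 in hac1-1 and 2.89, 3 and 2.97 in hac1-2, against 3.05, 2.58 and 3.30 in WT. WT overlapped both mutants in this ratio, while every hac1-1 library lay below every hac1-2 library.

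The make-up of the group shifted with genotype. Shares are of raw counts, not divided by gene length, so which member held most depends on the scale. On the FPKM scale WRKY70 averaged 57.2 and WRKY53 53.97 in hac1-2, with overlapping libraries. WRKY70 held 55.2, 50.7 and 60.6% of the counts of all 9 members in hac1-1 and 38.7, 37.7 and 36.2% in hac1-2, against 29.3, 26.0 and 30.2% in WT. WRKY53 held 26.8, 29.1 and 24.6% in hac1-1 and 44.9, 47.2 and 52.4% in hac1-2, against 46.4, 48.8 and 45.4% in WT. The WRKY53 share was thus lowest in hac1-1, while hac1-2 and WT overlapped. WRKY46 held 18.9 to 19.5% in WT libraries and at most 10.12% in a mutant library. Summed over the 9 members, the level was 226, 198 and 244 CPM in hac1-1 and 177, 153 and 169 CPM in hac1-2, against 289, 294 and 275 CPM in WT. The sums did not overlap, with hac1-2 lowest and WT highest.

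**Figure D4:**
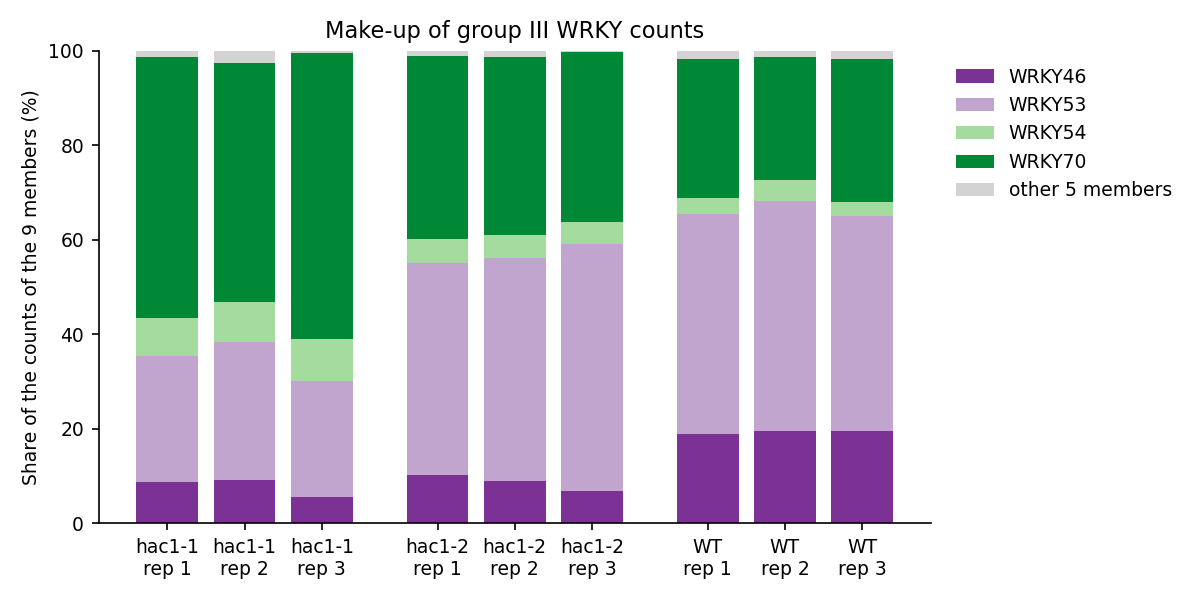
Share of WRKY46, WRKY53, WRKY54 and WRKY70 in the summed raw counts of the 9 members, in percent, for each library of hac1-1, hac1-2 and WT. The remaining members are pooled, and counts are not divided by gene length. By raw counts, WRKY70 held the largest share in all 3 hac1-1 libraries, and WRKY53 held the largest share in all hac1-2 and WT libraries.

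Beside the members, 36 of 58 other genes with a WRKY symbol had enough counts for a test. In hac1-1 against WT, 8 of these were called lower and 2 higher (median log2 fold change -0.15), and in hac1-2 against WT 6 were called lower and 0 higher (median -0.30, with 2 higher at an unadjusted p under 0.05 and 0 with DESeq2). In hac1-2 against hac1-1, 0 were called lower and 2 higher (median -0.08), where an unadjusted p under 0.05 gave 4 lower and DESeq2 1 lower. Ranked among all 41 tested genes with a WRKY symbol in hac1-1 against WT, WRKY46 had the lowest log2 fold change and WRKY53 the 3rd lowest. WRKY54 and WRKY70 had the 2nd and 3rd highest. In hac1-2 against hac1-1, the 3 WRKY genes called lower were WRKY38, WRKY54 and WRKY70, all members, and the 3 called higher were WRKY53, WRKY22 and WRKY48.
Of the other group III genes, only WRKY52 (RRS1), an immune receptor with a WRKY domain, could be tested. It is not among the 41 genes with a WRKY symbol. Its log2 fold change was 0.34 in hac1-1 (edgeR adjusted p = 0.175) and 0.06 in hac1-2 (edgeR adjusted p = 0.881). WRKY63 had 3 counts in all, and WRKY64, WRKY66 and WRKY67 had 0.

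**Figure D5:**
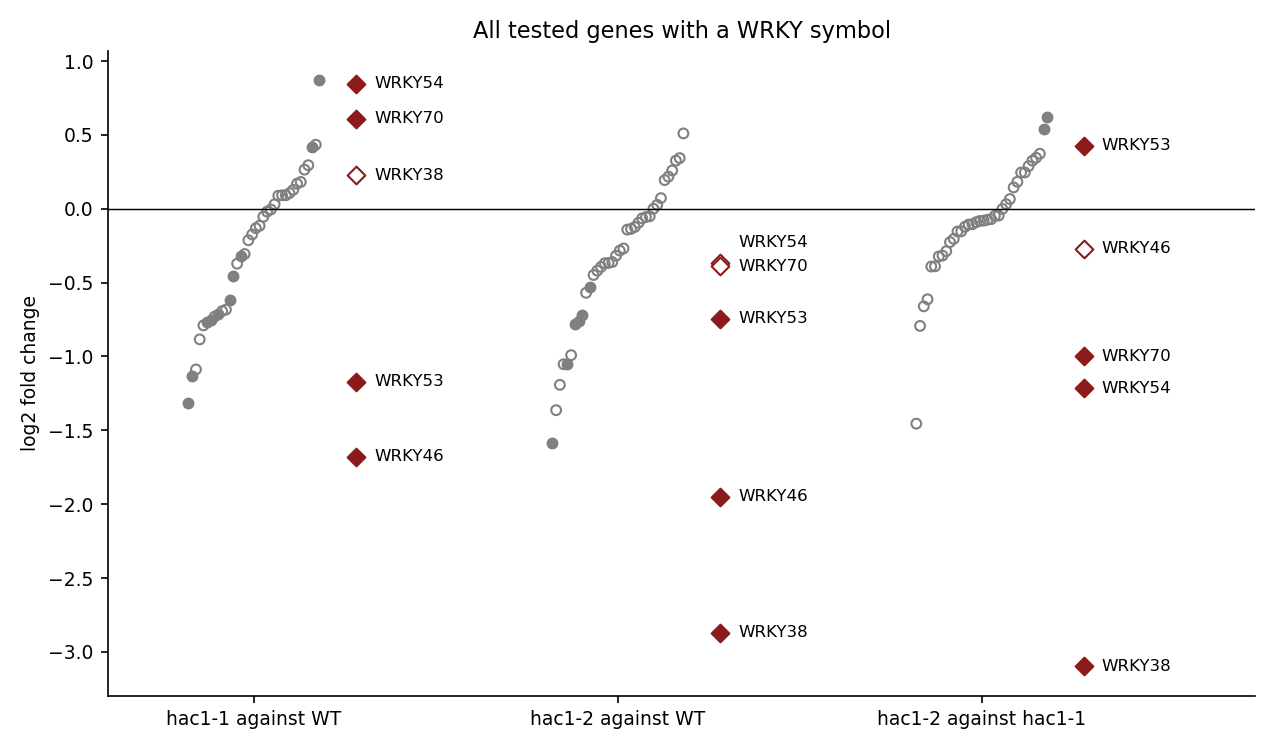
Log2 fold changes of all 41 tested genes with a WRKY symbol in hac1-1 against WT, hac1-2 against WT and hac1-2 against hac1-1, with the 5 tested members as diamonds. WRKY46 and WRKY53 lie at the lower end in hac1-1 and WRKY54 and WRKY70 near the upper end, where WRKY38 lies at 0.23.

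Patterns over the 9 libraries were compared by the root-mean-square difference of centred log2 CPM, over 12840 genes that averaged 5 CPM or more. Within the group, WRKY54 and WRKY70 were nearest to each other (0.21), where the median difference over all genes searched was 0.58 from WRKY54 and 0.49 from WRKY70. The tested member nearest to WRKY53 was WRKY46 (0.55), no nearer than the median gene searched (0.54), whereas from WRKY46 that median was 0.92. The gene nearest to WRKY53 was CML38, a calmodulin-like gene (0.10), whose log2 fold change was -1.16 in hac1-1 and -0.82 in hac1-2. Nearest to WRKY46 was the monooxygenase gene MO1 (AT4G15760, 0.22), with -1.71 in hac1-1 and -2.09 in hac1-2. Nearest to WRKY54 was SUS3, a sucrose synthase gene (0.12), and nearest to WRKY70 was RLP50, a receptor-like protein gene (0.11). Neither passed the test against WT in either mutant, and both were lower in hac1-2 than in hac1-1, SUS3 by a log2 fold change of -1.21 (edgeR adjusted p = 0.00978) and RLP50 by -0.94 (edgeR adjusted p = 0.0254). PCR1 was nearest to WRKY38 (0.37). A nearest pattern was searched for in the same libraries and is a description.

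Genes of rapid touch and wound responses were mostly lower in both mutants, as WRKY46 and WRKY53 were. Of 15 such genes, all tested, 14 were called lower in hac1-1 and 11 in hac1-2, with 0 higher in either by edgeR, DESeq2 or an unadjusted p under 0.05, and 5 were called higher in hac1-2 than in hac1-1 (2 without hac1-1 replicate 3, 3 without hac1-2 replicate 2 or 3). Their median log2 fold change was -1.13 in hac1-1, -0.76 in hac1-2 and 0.25 between the mutants. Over all tested genes, 9.12% were called lower in hac1-1, 7.44% lower in hac1-2 and 1.86% higher in hac1-2 than in hac1-1. The list of these 15 genes was chosen with earlier results of these data known, so its counts describe the listed genes only. It holds CML38, named above, and WRKY18, WRKY33, WRKY40 and WRKY60, which are also among the other WRKY genes. MYB15, a defence-related MYB factor gene, averaged 4.58 ± 0.75 CPM in hac1-1 and 3.52 ± 1.41 CPM in hac1-2, against 28.8 ± 4.01 CPM in WT (SD, n = 3). CML37, a calmodulin-like gene, averaged 94.6 ± 1.94 CPM in hac1-1 and 111.8 ± 10.14 CPM in hac1-2, against 213.6 ± 11.3 CPM in WT. JAZ1, a repressor of jasmonate signalling that jasmonate induces, averaged 253.4 ± 16.02 CPM in hac1-1 and 294.2 ± 14.4 CPM in hac1-2, against 525.5 ± 46.9 CPM in WT. Each of the 3 was called lower in both mutants with edgeR, at an adjusted p of at most 2.11e-06.

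Of the genes of salicylic acid synthesis and signalling, more were called lower than higher in both mutants, as over all tested genes. Those shares were 9.12% lower and 3.51% higher in hac1-1, and 7.44% lower and 2.85% higher in hac1-2. Between the mutants, 0.978% of all tested genes were called lower in hac1-2. Of 18 genes of synthesis and signalling, 17 were tested, and 5 were called lower and 1 higher in hac1-1 (median log2 fold change -0.11), 7 lower and 0 higher in hac1-2 (median -0.36, also 0 higher with DESeq2 and at an unadjusted p under 0.05), and 1 lower in hac1-2 than in hac1-1 (median -0.07). ICS1, the main enzyme of salicylic acid synthesis from chorismate, averaged 9.56 ± 3.42 CPM in hac1-1 and 9.77 ± 0.48 CPM in hac1-2, against 19.9 ± 3.60 CPM in WT, and the log2 fold change was -1.07 and -1.03 (edgeR adjusted p = 0.00156 and 0.00232). PAD4, a signalling partner of EDS1, averaged 52.3 ± 4.71 CPM in hac1-1 and 54.4 ± 9.73 CPM in hac1-2, against 85.2 ± 7.24 CPM in WT, and was called lower in both.
The 1 gene called higher in hac1-1 was NIMIN1, whose protein binds NPR1, named here after its values were seen. Its log2 fold change was 1.74 in hac1-1 against WT (edgeR adjusted p = 0.0151), -0.38 in hac1-2 against WT (edgeR adjusted p = 0.757) and -2.12 in hac1-2 against hac1-1 (edgeR adjusted p = 0.0155), the same order of genotypes as WRKY54 and WRKY70. NIMIN1 had 124 counts in all hac1-1 libraries together, 33 in hac1-2 and 40 in WT. NIMIN2, of the same list, differed, with -0.76 in hac1-1 (edgeR adjusted p = 0.0894) and -1.71 in hac1-2 (edgeR adjusted p = 3.01e-04). The count of 1 higher became 0 without WT replicate 1, WT replicate 2 or hac1-1 replicate 1, and the count of 1 between the mutants became 0 without hac1-1 replicate 1 or hac1-2 replicate 2 or 3.

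Of 7 salicylic acid output genes, the 4 tested, PR1, PR2, PR5 and GRX480, were called lower in both mutants. Over all tested genes, 9.12% were called lower in hac1-1 and 7.44% in hac1-2. GRX480, a glutaredoxin gene induced by salicylic acid through TGA factors, averaged 86.2 ± 5.13 CPM in hac1-1 and 64.1 ± 12.2 CPM in hac1-2, against 176.5 ± 26.0 CPM in WT (SD, n = 3). Of 7 jasmonate output genes, 4 were tested, and all 4 were called lower in hac1-1 and 3 in hac1-2. The count was 2 in hac1-1 without WT replicate 1, and 1 in hac1-2 without WT replicate 1, hac1-2 replicate 1 or hac1-2 replicate 2. In hac1-2 it was 2 with DESeq2 and 0 with limma on log2(FPKM + 0.1). ORA59, an ERF regulator of jasmonate and ethylene defence genes, changed by -2.33 (log2) in hac1-1 (edgeR adjusted p = 0.00107) and by -1.67 in hac1-2 (edgeR adjusted p = 0.0127). MYC2, a central factor of jasmonate signalling, averaged 762.4 ± 41.3 CPM in hac1-1 and 795.3 ± 16.8 CPM in hac1-2, against 1005 ± 51.7 CPM in WT.

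Calls among the known regulators and partners of the members are set beside the shares over all tested genes. These were 9.12% lower and 3.51% higher in hac1-1, and 7.44% lower and 2.85% higher in hac1-2. Of 11 genes reported to regulate WRKY53 or WRKY70, all tested, 2 were called lower in hac1-1 and 0 in hac1-2, with 0 higher in either, the same counts as with DESeq2. At an unadjusted p under 0.05, 1 more was higher in hac1-1 and 1 was lower in hac1-2. The 2 called genes were ESP, whose protein interacts with WRKY53, with a log2 fold change of -1.06 (edgeR adjusted p = 0.00175), and MYB44, an activator of WRKY70, with -0.37 (edgeR adjusted p = 0.0302). The count was 1 when replicate 2 or 3 of hac1-1 was left out, and likewise for replicate 1 or 3 of WT. BES1, a brassinosteroid factor that works with WRKY46, WRKY54 and WRKY70, was the 1 of 3 brassinosteroid partners called lower in hac1-1 (log2 fold change -0.37, edgeR adjusted p = 0.0328), and the count was 0 without any 1 of the hac1-1 or WT libraries. In hac1-2, 0 of the 3 were called with edgeR or DESeq2, and 1 was lower at an unadjusted p under 0.05.

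Some genes reported as targets of WRKY53 were lower in the mutants, and others were not called. CAT3, WRKY6 and ORE1 were called in neither mutant, and NAP was called lower in hac1-2 only. Over all tested genes, 9.12% were called lower and 3.51% higher in hac1-1, and 7.44% lower and 2.85% higher in hac1-2. Between the mutants, 1.86% of all tested genes were called higher in hac1-2. Of 11 senescence and catalase targets, 8 were tested, and 3 were called lower and 0 higher in hac1-1 (1 higher at an unadjusted p under 0.05, 0 with DESeq2), 4 lower and 1 higher in hac1-2, and 2 higher in hac1-2 than in hac1-1. CAT2, a catalase gene, averaged 121.8 ± 7.78 CPM in hac1-1 and 139.8 ± 6.68 CPM in hac1-2, against 205.8 ± 10.8 CPM in WT (SD, n = 3). It was called lower in both mutants, by log2 fold changes of -0.76 (edgeR adjusted p = 7.45e-06) and -0.56 (edgeR adjusted p = 4.91e-04). CAT1, another catalase gene, was the 1 called higher in hac1-2 (log2 fold change 0.41, edgeR adjusted p = 0.0393), and the count was 0 without any 1 of WT replicates 1 to 3 or hac1-2 replicates 1 and 3. In hac1-1, CAT1 had a log2 fold change of 0.26 (edgeR adjusted p = 0.202), and 1 target was called higher there without hac1-1 replicate 2.
WRKY22, another defence and senescence WRKY factor, averaged 47.0 ± 7.45 CPM in hac1-1 and 68.4 ± 6.50 CPM in hac1-2, against 117.0 ± 8.94 CPM in WT. Like WRKY53 it was lowest in hac1-1, and its log2 fold change between hac1-2 and hac1-1 was 0.54 (edgeR adjusted p = 0.0173). The count of 2 higher between the mutants was 1 when hac1-1 replicate 2, hac1-1 replicate 3, hac1-2 replicate 1 or hac1-2 replicate 3 was left out. SAG12, a widely used marker of leaf senescence, had 5 counts in all hac1-1 libraries together and 0 in hac1-2, against 6 in WT, and was not tested. SAG13 was called lower in both mutants, by log2 fold changes of -2.96 in hac1-1 (edgeR adjusted p = 4.19e-07) and -1.17 in hac1-2 (edgeR adjusted p = 0.00654). Between hac1-2 and hac1-1 its log2 fold change was 1.79 (edgeR adjusted p = 0.00454).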

How the data were processed

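Total RNA of leaves gave 3 libraries each of hac1-1, hac1-2 and WT, prepared by breath adapter directional sequencing (BrAD-seq), per the labels. The authors deposited raw read counts per gene, made on genome build TAIR10, per the submitters' processing notes. Aligner, counter, strand setting and annotation are not given in the sources used here. FPKM values of 18168 genes were deposited as well, each the count divided by the total of the library and by the length of the gene, which came out whole in 100% of genes (tolerance 0.001). No per-sample column was left unused (0).

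Counts were tested in R 4.3.3 with edgeR 4.0.16, using filterByExpr with a minimum count of 10, TMM scaling and quasi-likelihood tests. Dispersions were estimated from all 9 libraries together, with quasi-likelihood dispersions fitted gene by gene. The common biological coefficient of variation was 13.7%. Benjamini-Hochberg adjustment ran over 16560 genes, with a threshold of 0.05. CPM values use TMM-scaled library totals, and 95% intervals are from the fit. The 18S ribosomal RNA genes held 12.1 to 21% of the counts. Any 2 libraries of a genotype differed by more than counting noise, so all were counted separately. In simulated data for hac1-1 against WT on 16560 genes, edgeR recovered 20% of 50 genes changed 1.5-fold, 64% at 2-fold, 96% at 4-fold and 94% at 8-fold, and 4.86% of its calls were false. Sequences, promoters and overlaps came from the RefSeq TAIR10.1 reference, near copies from BLAST 2.17.0 and figures from matplotlib 3.10.9.

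The members, the 8 gene lists and the named genes were chosen with earlier results of these data known. The genes named were the members, HAC1, up to 4 called genes per list by the smallest larger p, and 1 nearest gene per tested member. NIMIN1 and other genes outside this rule are named where a count of 5 or fewer asks for it. Alternatives were RLE or library-size scaling, no filter, only the 2 groups compared, a replicate block, no 18S genes, DESeq2 1.42.0, limma 3.58.1 on log2(FPKM + 1) or log2(FPKM + 0.1) or with a mean FPKM of at least 1, and leaving out each library.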

Additional observations from a re-analysis of the deposited data

Results flagged for a closer look

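The direct test of hac1-2 against hac1-1 passed the threshold for 4 of the 5 tested members, so for these the effect against WT differed between the mutants. WRKY54 (log2 fold change -1.22, edgeR adjusted p = 0.00108) and WRKY70 (-0.999, edgeR adjusted p = 2.13e-05) were lower in hac1-2 than in hac1-1 under all 19 alternatives. WRKY53 was higher in hac1-2 (log2 fold change 0.43, edgeR adjusted p = 0.0408), a call lost under 11 of 19 alternatives. WRKY38 was lower in hac1-2 (log2 fold change -3.10, edgeR adjusted p = 0.0459) on 4 counts in the 3 hac1-2 libraries against 31 in the 3 hac1-1 libraries, a call lost under 11 of 17 alternatives. HAC1 transcript itself differed between the mutants, at 58.6 to 72.7 CPM in hac1-1 and 121.8 to 150.5 CPM in hac1-2, and so did the summed level of mesophyll markers. Their part in these differences was not tested.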

How the results depend on the processing

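WRKY46 and WRKY53 against WT, WRKY70 in hac1-1 against WT, and WRKY54 and WRKY70 in hac1-2 against hac1-1 kept their direction and call under all 19 alternatives. All genes called numbered 1560 to 2511 in hac1-1 against WT and 1203 to 2054 in hac1-2 against WT. The 470 called between the mutants became 721 without a filter, 715 with a replicate block, 252, 241 and 260 with limma on log2(FPKM + 1), on log2(FPKM + 0.1) and with a mean FPKM of at least 1, and 204 to 548 when 1 library was left out. Between the mutants the 1 member called higher, WRKY53, became 0 with only the 2 groups compared (edgeR adjusted p = 0.0574) and in the 3 limma settings (limma adjusted p of 0.0769 to 0.0822), and 0 to 1 with 1 library left out. Members called higher in hac1-1 numbered 1 to 2 with 1 library left out, with 1 without WT replicate 3. The log2 fold change of WRKY38 in hac1-1 against WT ran from -0.10 to 0.61 with 1 library left out, and reversed to -0.10 without WT replicate 3, -0.03 without hac1-1 replicate 1 and -0.001 without hac1-1 replicate 2. WRKY38 in hac1-2 against WT was not called with limma on log2(FPKM + 1) (limma adjusted p = 0.0838). WRKY70 in hac1-2 against WT was called with no filter, with the replicate block, with 2 groups fitted alone and without hac1-1 replicate 2 or 3. On log2(FPKM + 0.1), limma called 4 salicylic acid synthesis and signalling genes lower in hac1-2 in place of 7, and 0 higher in hac1-1 and 0 lower between the mutants in place of 1 each. All 3 limma settings gave 1 regulator lower in hac1-1 in place of 2, 0 brassinosteroid partners in place of 1, 0 targets of WRKY53 higher in hac1-2 in place of 1, and 1 higher between the mutants in place of 2. Library-size scaling also gave 1 regulator and 0 brassinosteroid partners, and 2 groups fitted alone 1 regulator. For these changes the cause was not tested. The replicate numbers were not taken to pair the libraries: same-numbered libraries correlated in their deviations at 0.0118 to 0.144 across genes, although all 9 libraries correlated best with their own number, a hint from the data. The replicate block gave 2511, 2054 and 715 calls in hac1-1, in hac1-2 and between the mutants. The share of calls that were lower in hac1-2 was 72.3%, against 57.8% with library-size scaling and 62.0% with limma at a mean FPKM of at least 1. Across all results and alternatives, 1252 values were classed as the same, 75 counts moved, 28 calls were lost, 5 were gained and 3 values reversed. For a count of genes, the same allowed a modest change, such as 2092 to 2511 genes called in hac1-1 against WT. Few counts per library limit WRKY30, WRKY38, WRKY41, WRKY55 and WRKY62.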
